A study of Homo sapiens with 96 samples.

Results

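EWSR1, TAF15, TARDBP, and CIRBP encode RNA-binding proteins whose own transcripts were followed here by their alternative splicing (AS) in A549, a widely used human cell line that derives from lung adenocarcinoma. The members are all AS events that carry 1 of these 4 gene symbols in the 8 deposited tables, which is 175 of 239131 distinct events. EWSR1 (ENSG00000182944.13) held 54 events, TAF15 (ENSG00000172660.7) 57, TARDBP (ENSG00000120948.11) 18, and CIRBP (ENSG00000099622.9) 46. In hg19 they lie at chr22:29663998-29696515, chr17:34136486-34191619, chr1:11072401-11090585, and chr19:1259383-1274879. Poly(A)-RNA seq came from 30 libraries in 10 groups of 3. Cells received 1 µM GSK591, an inhibitor of PRMT5, for 2, 4, or 7 days, 1 µM MS023, an inhibitor of Type I PRMTs, for the same times, or 1 µM of each (co-treatment) for 2 or 4 days. Vehicle cells were given 0.01% DMSO. The control groups used are DMSO at 4 days, set against the 2- and 4-day inhibitor groups, and DMSO at 7 days, set against the 7-day groups. At 2 days, inhibitor and day therefore cannot be told apart, and DMSO at 7 and 4 days differed at several events below. All groups are 1 cell line, and nothing in the labels says whether the 3 libraries of a group are separate cultures, so p-values measure the spread between these libraries. Within a group the libraries are called a, b, and c by their position in the tables.

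EWSR1 and TAF15 belong to the FET family, nuclear proteins with an RNA recognition motif and arginine- and glycine-rich (RGG) stretches that PRMTs methylate. TARDBP, also called TDP-43, binds UG-rich RNA, represses cryptic exons, and lowers its own mRNA through its 3′ untranslated region. CIRBP is a cold-inducible RNA chaperone with an RGG tail that can enter stress granules. PRMT5 deposits symmetric dimethylarginine and Type I PRMTs deposit asymmetric dimethylarginine on such proteins, and a retained intron (RI) in a mature transcript usually keeps it in the nucleus or interrupts its reading frame.

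The splice sites that the main events turn on are shown first, as read from GRCh37, the sequence behind hg19. Each gene lies on the + strand. In the EWSR1 lines below, capitals mark the GT that opens an intron or the AG that closes it. Intron 8 (chr22:29684776-29687550) is the intron of the event RI1, and RI2 is the same intron with an acceptor 3 bases on. Both acceptors are shown because reads divide between them.
EWSR1 intron 8 donor: gggGTaaga
EWSR1 intron 8 acceptor: ttcttcgtttatccccccAGcag
EWSR1 intron 8 acceptor 3 bases on: ttcgtttatccccccagcAGcgc

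The second EWSR1 region is around exon 15. The intron of RI3 (chr22:29694886-29695184) is the first 299 of the 338 bases of intron 14, since its acceptor lies 39 bases before the usual start of exon 15. It is shown whole, together with the usual acceptor and with both donors, since the spliced forms of RI3 and RI5 meet in an alternative exon of 86 bases between these sites.
EWSR1 intron 14 up to the alternative acceptor: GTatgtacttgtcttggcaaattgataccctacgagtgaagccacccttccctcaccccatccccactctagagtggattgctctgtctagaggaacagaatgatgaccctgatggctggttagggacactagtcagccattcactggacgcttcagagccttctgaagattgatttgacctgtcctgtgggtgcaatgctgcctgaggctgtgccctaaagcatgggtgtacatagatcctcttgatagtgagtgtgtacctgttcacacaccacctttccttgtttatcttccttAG
EWSR1 exon 15 acceptor: tgtgatgtaattgtatgcAGggg
EWSR1 alternative donor in exon 15: agtGTaagg
EWSR1 exon 15 donor: cggGTaggt

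For TAF15 the 2 cassette exons that lost inclusion are shown with 10 bases of intron on either side, the exon being in capitals. Exon 8 (chr17:34160911-34160945) has 35 bases, which is not a multiple of 3, and exon 9 (chr17:34161570-34161602) has 33. The donors of exon 4 are 9 bases apart and are given with their GT in capitals.
TAF15 exon 8: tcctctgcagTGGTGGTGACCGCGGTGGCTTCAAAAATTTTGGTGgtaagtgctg
TAF15 exon 9: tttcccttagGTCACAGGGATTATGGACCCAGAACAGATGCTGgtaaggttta
TAF15 exon 4 donor, short form: aaaGTcagt
TAF15 exon 4 donor, long form: cagGTtgga

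For CIRBP the acceptors of exon 2 are shown because the long form, which adds 61 bases before the usual exon, changed share. The donor and acceptor inside the last exon bound the event RI4 (chr19:1272051-1274305). Intron 3 (chr19:1271246-1271327) is given whole, as the intron of RI3.
CIRBP exon 2 acceptor, long form: atgtcatttacataaaatAGgaa
CIRBP exon 2 acceptor, short form: ttcattggtgtctgccacAGgcc
CIRBP donor in exon 6: acgGTaagt
CIRBP acceptor in exon 6: acgctgctttgctttggcAGgtt
CIRBP intron 3: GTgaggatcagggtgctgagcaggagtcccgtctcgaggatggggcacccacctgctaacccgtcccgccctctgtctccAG

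The measure throughout is Ψ, the share of the form that holds the alternative segment among the 2 forms that an event compares. It was computed per library from the deposited inclusion and skipping counts after division of each by its effective length. Transcripts with neither form do not enter it, so Ψ is not a share of all transcripts of a gene. ΔΨ is the mean Ψ of the inhibitor group minus that of DMSO, and SD is over 3 libraries. Tests were limited to events with 10 or more reads in each library compared, and an event was called where the adjusted p of a quasi-binomial model was under 0.05 (squeezeVar of limma for the dispersion, Benjamini-Hochberg adjustment within the event type). Depth, taken as the reads on 1 exon-skipping event from each of 9000 genes, ran from 8514778 to 12901953 per library. Libraries of a group differed by 2.68 to 6.21 times the sampling variance, except that library a of GSK591 at 2 days differed from b and c by 63.8 and 68.1 times. GSK591 results at 2 days are therefore also given without it. The epithelial keratins KRT8 and KRT18 had at least 266370 and 17743 reads on their events in every library. The epithelial gene EPCAM had between 5 and 297. Among markers of other cells, COL1A1 had between 9 and 120 reads per library and CD3E between 0 and 17. The leukocyte gene PTPRC and the endothelial gene PECAM1 had no event, which does not show that they are not expressed.

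Of the 175 events, 155 could be tested in at least 1 of the 8 comparisons with DMSO, 29 were called in at least 1, and 13 in 3 or more. The called events were 10 of EWSR1, 11 of TAF15, 2 of TARDBP, and 6 of CIRBP. GSK591 changed 8 of 80 tested events at 2 days, where 7.02% of all tested events were called, 13 of 98 at 4 days (background 11.2%), and 12 of 76 at 7 days (background 8.93%). Without library a, the 2-day count was again 8. Co-treatment changed 11 of 97 at 2 days (background 13.4%) and 16 of 93 at 4 days (background 14.7%). MS023 changed 3 of 88 at 2 days (background 3.16%), 6 of 79 at 4 days (background 3.75%), and 6 of 74 at 7 days (background 4.75%). The shares of the members were 10%, 13.3%, and 15.8% for GSK591, 11.3% and 17.2% for co-treatment, and 3.41%, 7.59%, and 8.11% for MS023. The called events are not all separate. EWSR1 SE9, SE13, and SE15 are 3 versions of 1 cassette exon that start at the same base (chr22:29684595). All 3 are among the calls of GSK591 at 2 days, MS023 at 4 days, and co-treatment at 4 days, and raise these shares together. The median ΔΨ over the tested member events at 4 days of GSK591 was -0.000782, beside -0.00108 over all tested events.

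Among the events named here, RI3 of EWSR1 had the largest ΔΨ against DMSO. Of 11 tested RI of these genes, GSK591 changed 2 at 2 days, beside 26.4% of all tested RI, 6 at 4 days (38.2%), and 6 at 7 days (27.9%). At 4 and 7 days 5 of these 6 were higher, where 33.9% and 21.8% of all tested RI were called and higher. At each of these times 4 of the 5 were EWSR1 events and 1 was a CIRBP event. RI1 and RI2 of EWSR1 are nearly the same intron, and RI3 and RI5 flank 1 alternative exon, so these 4 are not separate evidence. TAF15 had 0 of 2 RI called, and TARDBP had no RI event. Co-treatment changed 4 of 11 at 2 days (34.7%) and 5 of 12 at 4 days (39.7%). MS023 changed 2 of 11 at 2 days (5.65%), both lower (4.21% of all RI called and lower), 1 at 4 days (7.17%), and 2 at 7 days (11.4%). The dot plot of ΔΨ across inhibitor groups shows the named events side by side. EWSR1 introns were higher with GSK591 and co-treatment, TAF15 exons 8 and 9 were lower with them, and events within CIRBP had no single direction.

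**Figure D1:**
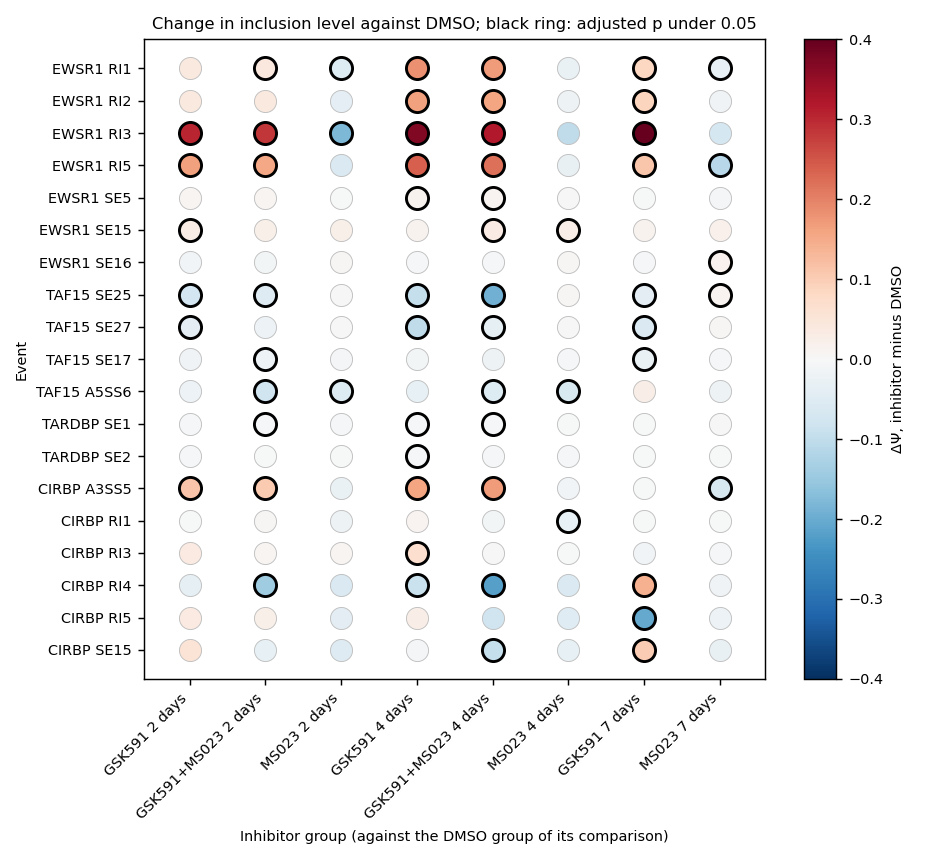
Difference in mean Ψ between each inhibitor group and its DMSO group (colour, blue lower and red higher) for 19 named events of the 4 genes (rows) in the 8 comparisons (columns). Black rings mark an adjusted p under 0.05, and a missing dot means that the event was not tested. EWSR1 RI3 had the darkest red dots, up to 0.4 for GSK591 at 7 days.

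EWSR1 intron 8 was more retained with GSK591 at 4 and 7 days. This intron of 2775 bases holds 47 in-frame stop codons, the first at its codon 2. In DMSO at 4 days Ψ of RI1 was 0.284, 0.273, and 0.263 (0.273 ± 0.0103 SD, n = 3), and with GSK591 at 4 days it was 0.474, 0.415, and 0.479 (0.456 ± 0.0357). The lowest GSK591 library lay well above the highest DMSO library, and ΔΨ was 0.182 (adjusted p = 1.69e-07, quasi-binomial model with limma). Co-treatment for 4 days gave 0.416, 0.46, and 0.451 (adjusted p = 3.88e-08), and the difference from GSK591 alone, -0.0133, was within the spread of libraries. At 2 days GSK591 gave 0.244, 0.314, and 0.382, where library a lay below and b and c above every DMSO library, and was not called (adjusted p = 0.346). Without library a it was called (adjusted p = 0.0105). Co-treatment for 2 days raised Ψ to 0.316 ± 0.0286 (adjusted p = 0.0332), a call that was lost without library a or b of co-treatment (0.213 and 0.0627) or library b or c of DMSO (0.0718 and 0.109).

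MS023 moved the same intron down. At 2 days Ψ was 0.212, 0.241, and 0.207 (adjusted p = 0.00883 by the quasi-binomial model with limma's squeezeVar), below each DMSO library, but the call was lost without MS023 library a or c (0.0594 and 0.0885). At 4 days, 0.248 ± 0.0227 did not pass the test (adjusted p = 0.304). At 7 days Ψ was 0.104, 0.081, and 0.089, beside 0.114, 0.117, and 0.144 in DMSO of the same day (ΔΨ = -0.0336, adjusted p = 0.000506). The direct test of GSK591 against MS023 was called at each time, with differences of 0.0932, 0.208, and 0.119 at 2, 4, and 7 days (adjusted p = 0.00232, 3.1e-11, and 1.19e-17). Without library a of GSK591 the 2-day value was 3.79e-08.

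The DMSO groups also differed from each other at this intron. RI1 was at 0.125 ± 0.0162 in DMSO at 7 days against 0.273 ± 0.0103 at 4 days (adjusted p = 6.55e-08, quasi-binomial model with limma). GSK591 at 7 days gave 0.18, 0.246, and 0.208, above its own DMSO group (ΔΨ = 0.0859, adjusted p = 1.07e-05) yet below every library of DMSO and of GSK591 at 4 days. Day and any difference in handling between the 4-day and 7-day cultures cannot be told apart. RI2 followed RI1, from 0.265 ± 0.0174 to 0.429 ± 0.0163 with GSK591 at 4 days and from 0.125 ± 0.0167 to 0.215 ± 0.0166 at 7 days. It shares nearly all of its intronic reads with RI1 and is no separate evidence.

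The reads behind RI1 moved on both sides. Spliced reads were 275, 361, and 313 in DMSO at 4 days and 146, 218, and 194 with GSK591, whereas reads counted for inclusion were 2140, 2661, and 2196 in DMSO and 2583, 3031, and 3496 with GSK591. The event SE15 reads exon 8, intron 8, and exon 9 as 1 long exon and shares the intronic reads. Its Ψ was 0.968 ± 0.00831 in DMSO at 4 days and 1 in each library of co-treatment at 4 days (adjusted p = 0.000654 by the quasi-binomial model with limma). SE15 was also called higher with GSK591 at 2 days (adjusted p = 0.0304) and with MS023 at 4 days (ΔΨ = 0.028, adjusted p = 0.0286). Both of these calls were lost without any 1 of the 6 libraries. With MS023 at 7 days its ΔΨ was 0.0194 and was not called, so SE15 did not follow RI1 with MS023.

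**Figure D2:**
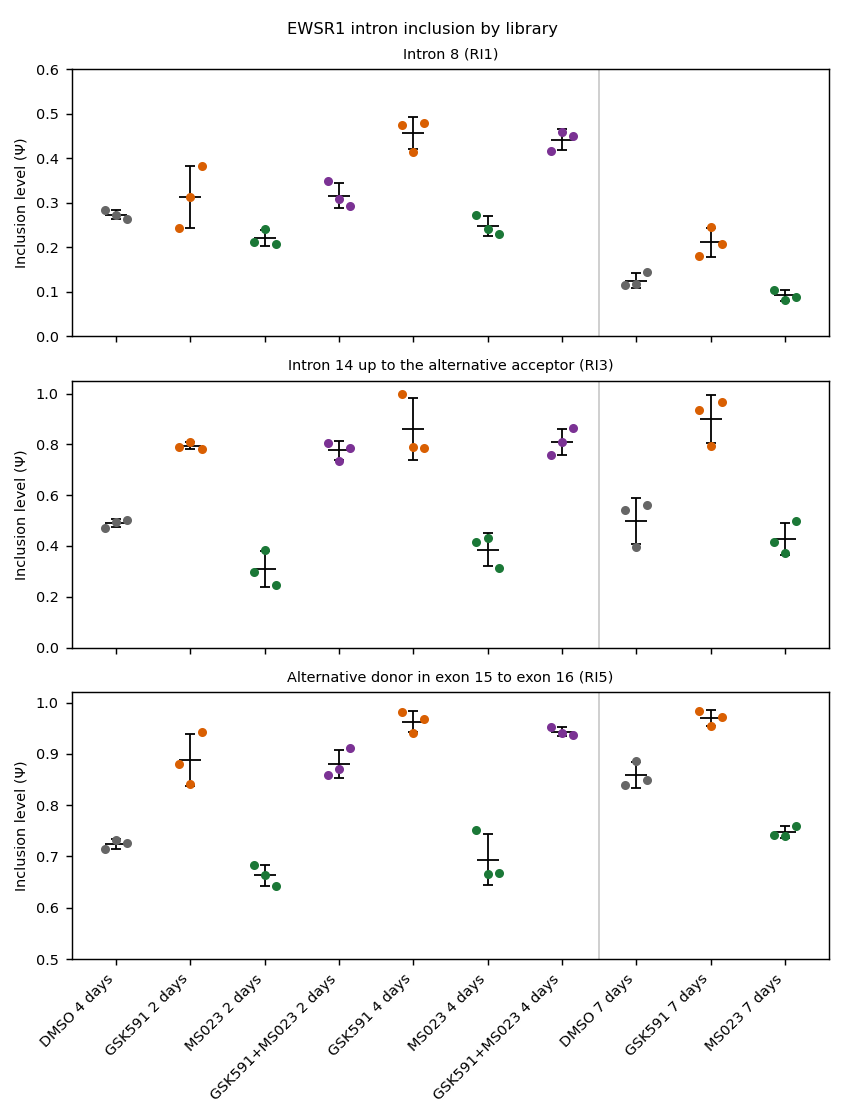
Ψ of 3 EWSR1 RI events in each of the 30 libraries (dots, left to right a, b, and c), with group mean and SD (bars). The vertical line divides the 4-day DMSO set from the 7-day DMSO set, and the y axis of the lowest panel starts at 0.5. In each panel the GSK591 and co-treatment libraries of 4 days lie above all DMSO libraries of 4 days.

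The splicing of the alternative exon around EWSR1 exon 15 fell with GSK591 at 2, 4, and 7 days. Ψ of RI3 was 0.472, 0.496, and 0.502 in DMSO at 4 days and 0.79, 0.81, and 0.783 with GSK591 at 2 days (ΔΨ = 0.305, adjusted p = 0.000203, quasi-binomial model with limma, and 0.000558 without library a). It reached 0.859 ± 0.122 with GSK591 at 4 days, where library a had 177 reads for inclusion and 0 spliced reads, and 0.81 ± 0.0523 with co-treatment. The ΔΨ at 7 days was 0.4, from 0.542, 0.395, and 0.56 in DMSO to 0.935, 0.793, and 0.968 with GSK591 (adjusted p = 0.000366). No inhibited library of these groups overlapped its DMSO libraries.

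MS023 gave the reverse at RI3 at 2 days, with Ψ of 0.296, 0.385, and 0.247 (ΔΨ = -0.18, adjusted p = 0.0197 by the quasi-binomial model with limma), though not without MS023 library a or c (0.106 in each case). The 4- and 7-day means of 0.386 ± 0.0646 and 0.428 ± 0.0639 did not pass the test. GSK591 and MS023 differed by 0.485, 0.472, and 0.471 at 2, 4, and 7 days, with an adjusted p of at most 5.23e-07. RI3 in DMSO was at 0.49 ± 0.0159 and 0.499 ± 0.0905 at 4 and 7 days.

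RI5 (chr22:29695271-29695588) runs from the alternative donor to exon 16, and so contains the last 51 bases of exon 15 and all of intron 15. Reads of the usual exon 15 therefore count as inclusion here, and reads across the usual intron 14 junction count in neither form of RI3. In DMSO at 4 days Ψ was 0.714, 0.732, and 0.726. It rose with GSK591 to 0.881, 0.841, and 0.943 at 2 days (adjusted p = 0.000743, quasi-binomial model with limma, and 0.00253 without library a) and to 0.981, 0.941, and 0.968 at 4 days (adjusted p = 5.59e-07). Co-treatment gave 0.88 ± 0.0274 and 0.943 ± 0.00866 at 2 and 4 days. The spliced reads that define the alternative donor were 79, 81, and 72 in DMSO at 4 days and 3, 10, and 5 with GSK591.

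At 7 days RI5 stood at 0.859 ± 0.0248 in DMSO, 0.97 ± 0.0151 with GSK591 (adjusted p = 0.000772, quasi-binomial model with limma), and 0.747 ± 0.0117 with MS023 (ΔΨ = -0.112, adjusted p = 0.00269). The GSK591 and MS023 libraries thus lay on opposite sides of DMSO with no overlap. RI4, which spans RI3 and RI5 with all of exon 15, could be tested only for co-treatment at 4 days and was not called (1 and 0.984, adjusted p = 0.381).

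As to other EWSR1 events, exon 6 (SE5) rose from 0.976 ± 0.00327 to 0.99 ± 0.00398 with GSK591 at 4 days (adjusted p = 0.0101, quasi-binomial model with limma), and exon 9 (SE16) rose from 0.969 ± 0.0142 to 0.986 ± 0.000968 with MS023 at 7 days (adjusted p = 0.0198). An acceptor of exon 11 (A3SS6) went from 1 in each library of DMSO at 7 days to 0.998 ± 0.00123 with MS023 (adjusted p = 0.0337), which was lost without any 1 of the 6 libraries. The exon 6 and 9 changes are small steps from a high Ψ, and each of the 6 calls of these exons in any comparison was lost when some single library was left out. Of the 10 calls of RI5 in all comparisons, limma on log2 odds also called 7, and it called 6 of 9 of RI3 and 4 of 10 of RI1. None of the MS023 calls against DMSO was among them. Limma on log2 odds also did not call GSK591 against DMSO for RI3 at 4 days, RI1 at 7 days, or RI5 at 2 days (adjusted p = 0.106, 0.0657, and 0.0524). The same held for RI1 with co-treatment at 2 days (0.37).

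TAF15 lost exon 8 with GSK591. Ψ of this exon was 0.992, 0.99, and 0.996 in DMSO at 4 days, and 0.945, 0.917, and 0.892 with GSK591 at 2 days (ΔΨ = -0.0745, adjusted p = 3.11e-09, quasi-binomial model with limma, and 1.88e-05 without library a). At 4 days it was 0.886, 0.903, and 0.907 with GSK591 (adjusted p = 3.27e-11) and 0.798, 0.803, and 0.805 with co-treatment (adjusted p = 1.62e-16). These groups did not overlap DMSO or each other. The step from GSK591 to co-treatment at 4 days was -0.0971 (adjusted p = 0.00476), while at 2 days co-treatment and GSK591 overlapped and differed by 0.024 (adjusted p = 0.659). Of the 10 comparisons in which exon 8 was called, limma on log2 odds called 3. GSK591 and co-treatment at 4 days against DMSO were among them (adjusted p = 0.0285 and 0.00894), and GSK591 at 2 and 7 days (0.0895 and 0.171), co-treatment at 2 days (0.0524), and the step at 4 days (0.254) were not.

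At 7 days exon 8 was at 0.984 ± 0.00527 in DMSO and 0.941 ± 0.0157 with GSK591 (adjusted p = 2.51e-06, quasi-binomial model with limma). MS023 went the other way, to 0.995 ± 0.00428 at 7 days (adjusted p = 0.00116), a call lost without library a or b of DMSO (0.159 and 0.192) or library b or c of MS023 (0.161 and 0.224). Its values at 2 and 4 days, 0.995 ± 0.00335 and 0.998 ± 0.000696, did not pass the test. Reads that skip exon 8 numbered 9, 14, and 5 in DMSO at 4 days, of 1396, 1718, and 1483 in all, against 45, 42, and 45 of 264, 253, and 274 with co-treatment.

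Exon 9 was also lower with GSK591, with more spread between libraries. It went from 0.995, 0.99, and 0.998 in DMSO to 0.835, 0.874, and 0.968 with GSK591 at 4 days (adjusted p = 6.82e-06, quasi-binomial model with limma) and from 0.993 ± 0.00803 to 0.936 ± 0.00776 at 7 days (adjusted p = 0.00017). At 2 days, 0.951, 0.911, and 0.991 was called (adjusted p = 0.00164, and 0.0373 without library a), but library c overlapped DMSO and the call was lost without library b (0.178). Co-treatment gave 0.971 ± 0.0129 at 2 days, which did not pass, and 0.958 ± 0.0253 at 4 days (adjusted p = 0.0142), a call that did not hold without any one of DMSO library a or c or co-treatment library b or c. The 4-day mean of co-treatment was above that of GSK591 by 0.0652, which did not pass the test (adjusted p = 0.296). The MS023 means lay between 0.995 and 0.997. Of the 7 comparisons in which exon 9 was called, limma on log2 odds called 3, GSK591 at 4 days against DMSO among them (adjusted p = 0.0474).

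The donor choice of TAF15 exon 4 changed with MS023 and co-treatment at 2 and 4 days. The long form, with 9 more bases, was at 0.856, 0.877, and 0.876 in DMSO at 4 days, and at 0.826, 0.812, and 0.811 with MS023 at 2 days (adjusted p = 5.91e-07, quasi-binomial model with limma). MS023 at 4 days gave 0.812, 0.789, and 0.818 (adjusted p = 2.24e-07), and co-treatment gave 0.791 ± 0.0254 at 2 days (adjusted p = 5.86e-05) and 0.814 ± 0.018 at 4 days (adjusted p = 0.00366, and 0.107 without co-treatment library a). All of these libraries lay below DMSO. GSK591 alone, at 0.846 ± 0.0196 and 0.838 ± 0.00356, did not pass (adjusted p = 0.264 and 0.0833), nor did the direct difference between GSK591 and MS023 at 2 or 4 days (0.0299 and 0.0313, adjusted p = 0.0647 and 0.126). At 7 days that difference was 0.0473 (adjusted p = 0.00321, and 0.0539 without GSK591 library c), but MS023 at 0.809 ± 0.00743 was not called against DMSO at 0.83 ± 0.00779 (adjusted p = 0.142). DMSO itself was lower at 7 than at 4 days (difference -0.0393, adjusted p = 0.00439, but 0.0779 without library c of 4 days and 0.16 without library a of 7 days). Limma on log2 odds called none of the 7 comparisons in which this donor was called.

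TAF15 also had fewer reads. As a measure of its level, reads on the most read exon-skipping event with an exon of at most 300 bases (exon 12, chr17:34169371-34169463) were taken as RPM relative to the reads on the events of 9000 genes, after scaling by the median ratio. In bulk libraries, fewer cells of a kind and less RNA per cell cannot be told apart. The level was 267, 247, and 249 in DMSO at 4 days, and it was 143, 101, and 89.1 with GSK591 at 2 days, 70.9, 73.7, and 67.7 with GSK591 at 4 days, and 64.9, 62.3, and 75.5 with co-treatment at 4 days. The highest of these libraries was far below the lowest DMSO library. Log2 fold changes were -1.22 ± 0.11 (SE) at 2 days and -1.85 ± 0.114 at 4 days of GSK591, and -1.38 ± 0.112 and -1.92 ± 0.115 with co-treatment, with an adjusted p of at most 3.25e-09 by limma (voom). In these comparisons 31.1%, 35.8%, 39.9%, and 54% of the 9000 genes were called. Without library a the 2-day value of GSK591 was -1.41.

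At 7 days the TAF15 level was 237, 248, and 275 in DMSO, 96.5, 99.6, and 86.4 with GSK591 (log2 fold change -1.43, adjusted p = 1.72e-11, limma), and 393, 423, and 415 with MS023 (0.70, adjusted p = 1.28e-05). Of all genes 45.4% and 28.7% were called there. The value for MS023 at 2 days, 0.36 (adjusted p = 0.0264, background 10.2%), had the same direction and did not pass on other TAF15 events (0.44 and 0.24, adjusted p = 0.104 and 0.167), and 0.21 at 4 days did not pass (adjusted p = 0.159, background 21.9%). The TAF15 fold at 4 days of GSK591, 0.278, was at percentile 0.133 of the 9000 genes. The Ψ of exons 8 and 9 thus rests on fewer reads in GSK591 than in DMSO, and skipping reads of exon 9 at 4 days numbered 11, 15, and 4 with GSK591 beside 2, 5, and 1 in DMSO.

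**Figure D3:**
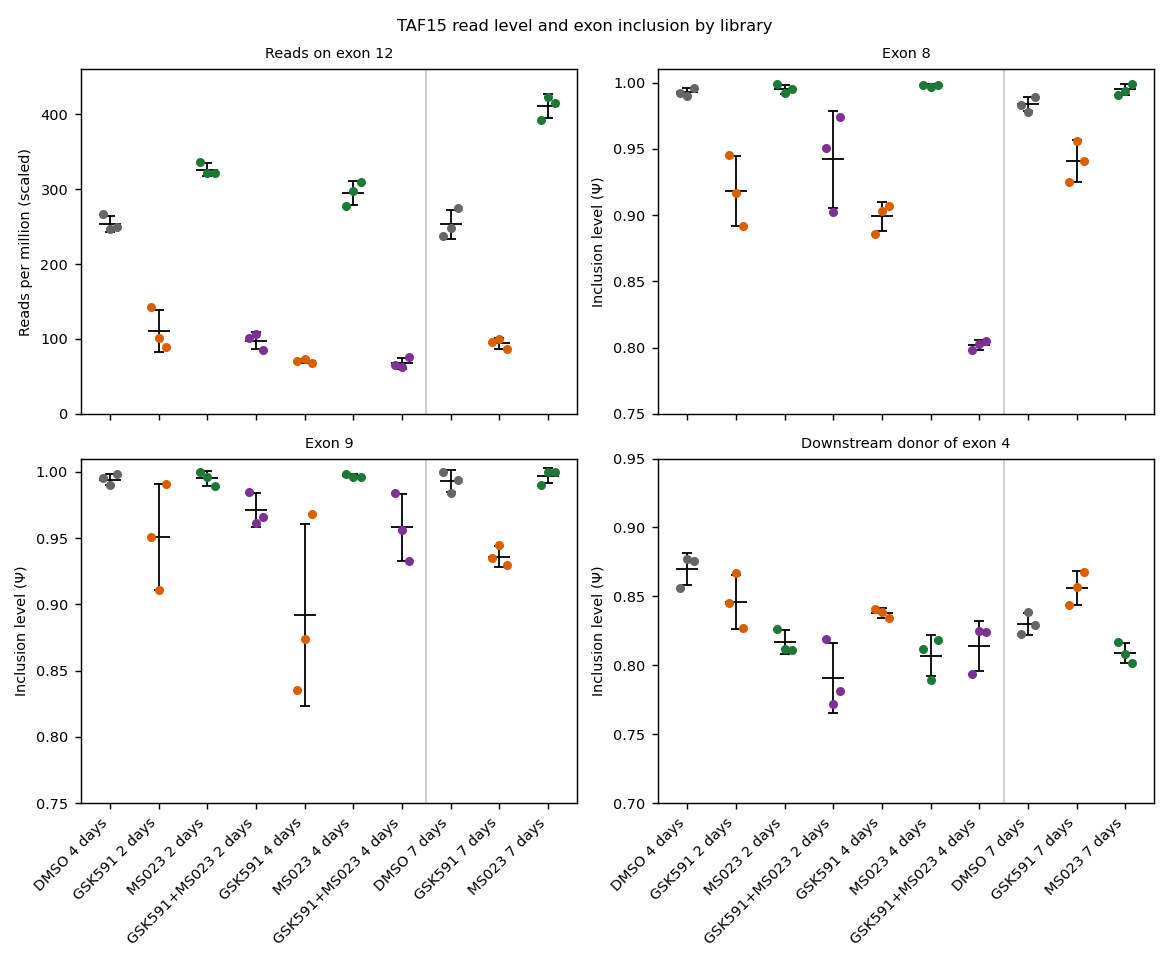
TAF15 reads on exon 12 in RPM (upper left) and Ψ of exon 8, exon 9, and the downstream donor of exon 4 in each library (dots), with group mean and SD (bars). Ψ axes do not start at 0. GSK591 and co-treatment libraries are low in the read level and in exon 8, with co-treatment at 4 days the lowest in exon 8, and MS023 libraries are at or above DMSO in the read level.

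Other TAF15 events were called in fewer comparisons. A form of exon 4 with the short donor (SE17) went from 0.99 ± 0.0043 to 0.967 ± 0.00624 with co-treatment at 2 days (adjusted p = 0.0263, quasi-binomial model with limma) and from 0.989 ± 0.00935 to 0.963 ± 0.0108 with GSK591 at 7 days (adjusted p = 0.0446), and both calls were lost when any of several libraries was left out. MXE15 pairs exon 12 with the segment at chr17:34171081-34171162. Its Ψ went from 0.579 ± 0.0356 to 0.509 ± 0.00327 with co-treatment at 2 days (adjusted p = 0.0244). This call was lost without DMSO library b or any library of co-treatment. The skipping of exon 12 as a cassette (SE31) was tested in 8 comparisons with DMSO and was never called. A donor 40 bases into intron 1 (A5SS3) was called with co-treatment at 4 days on 4 reads in library a alone, and the call was lost without that library. Both RI of TAF15 were tested, and neither was called against DMSO. RI1, which spans introns 3 and 4 with exon 4, was at 0.766, 0.894, and 0.731 in DMSO at 7 days and 0.61, 0.595, and 0.424 with GSK591, without overlap but not called (ΔΨ = -0.254, adjusted p = 0.125). MS023 at 7 days was at 0.871 ± 0.039, and its difference from GSK591 was called (adjusted p = 0.0039) on 18 to 25 reads per GSK591 library.

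TARDBP had no RI event in the tables, and its changes were confined in the comparisons with DMSO to 2 rarely used exons inside intron 2. The first, SE1 (chr1:11075581-11075703, 123 bases), had a Ψ of 0.624% in DMSO at 4 days, from 12, 9, and 8 inclusion reads. It had 0 inclusion reads of 617, 695, and 577 with co-treatment at 2 days (adjusted p = 0.00038, quasi-binomial model with limma), where a count of 0 in library a allows a share of up to 0.486% of its reads, by counting error only. It had 0, 0, and 1 with GSK591 at 4 days (adjusted p = 0.00294, and 0.0577 without library a). The second, SE2 (chr1:11076180-11076311, 132 bases), fell from 0.68% to 0.145% with GSK591 at 4 days (adjusted p = 0.0256), a call lost on leaving out any 1 of the 6 libraries. At 7 days SE1 had 1, 2, and 2 inclusion reads in DMSO already.

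No other TARDBP event was called against DMSO. GSK591 at 2 and 7 days and MS023 at 2, 4, and 7 days gave 0 calls among 5 to 8 tested events by the quasi-binomial model with limma, with 1 or 2 at an unadjusted p under 0.05, and limma on log2 odds also gave 0. The read level of TARDBP was 186, 206, and 184 in DMSO at 4 days and 143, 153, and 156 with co-treatment at 4 days, a fold of 0.784 (adjusted p = 0.000111, limma). With GSK591 at 7 days the fold was 0.816 (adjusted p = 0.00109). Of all genes 54% and 45.4% were called in these comparisons, and TARDBP was at percentiles 26.8 and 28.1 of the genes. GSK591 at 2 and 4 days and MS023 at each time did not pass.

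CIRBP changed in its long last exon and at its exon 2. RI4 removes 2255 bases from inside the 2830-base exon 6 of the transcript marked canonical in the annotation, and is annotated as an intron in 6 transcripts. Its retained form is thus the long exon of that transcript, which need not be the form most used. In DMSO at 4 days Ψ was 0.722, 0.762, and 0.696. Co-treatment lowered it to 0.612, 0.557, and 0.588 at 2 days (ΔΨ = -0.141, adjusted p = 0.00225, quasi-binomial model with limma) and to 0.546, 0.515, and 0.462 at 4 days (ΔΨ = -0.219, adjusted p = 5.07e-06). GSK591 alone gave 0.637 ± 0.0369 at 4 days (adjusted p = 0.0325), a call lost without library a or b of DMSO or library b or c of GSK591, with adjusted p up to 0.134. MS023 alone, at 0.666 ± 0.00697 and 0.668 ± 0.0449, did not pass.

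The direction of RI4 differed at 7 days. DMSO was at 0.441, 0.451, and 0.552, well under its 4-day level (adjusted p = 5.37e-05, quasi-binomial model with limma), and GSK591 was at 0.565, 0.713, and 0.594. This rise of 0.143 was called (adjusted p = 0.00345, and 0.0504 without DMSO library b). The GSK591 effects at 7 and 4 days, 0.143 and -0.0894, differed in the interaction test (adjusted p = 0.0039). SE15, an exon of 222 bases inside RI4 that shares its spliced reads, moved with it, to 0.193 ± 0.019 from 0.289 ± 0.0158 with co-treatment at 4 days and to 0.266 ± 0.0727 from 0.165 ± 0.0058 with GSK591 at 7 days. Both SE15 calls were lost on leaving out single libraries. RI4 was also called by limma on log2 odds for co-treatment at 2 and 4 days (adjusted p = 0.0428 and 0.011) and in none of the other 5 comparisons in which it was called, with 0.124 for GSK591 at 4 days, 0.148 for GSK591 at 7 days, and 0.139 for DMSO at 7 against 4 days. None of the 4 calls of SE15 was called by limma.

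RI5 of CIRBP (chr19:1274440-1274647) lies further on in the same exon, in its non-coding part. It was at 0.398, 0.465, and 0.522 in DMSO at 7 days and at 0.228, 0.263, and 0.28 with GSK591 (ΔΨ = -0.205, adjusted p = 0.000266, quasi-binomial model with limma). The groups did not overlap, and limma on log2 odds called it as well (adjusted p = 0.0284). MS023 at 7 days stayed at 0.443, 0.436, and 0.435. At 2 and 4 days no comparison with DMSO was called for this intron, and DMSO at 4 days ranged from 0.457 to 0.66.

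The long form of CIRBP exon 2 (A3SS5) rose with GSK591 at 2 and 4 days and not at 7. Ψ was 0.112, 0.161, and 0.2 in DMSO at 4 days, 0.252, 0.243, and 0.318 with GSK591 at 2 days (adjusted p = 0.00446, quasi-binomial model with limma), and 0.345, 0.253, and 0.346 at 4 days (adjusted p = 2.1e-05). The 2-day value was 0.0267 without GSK591 library a, 0.126 without DMSO library a, and 0.0513 without GSK591 library c. With co-treatment it was 0.325, 0.322, and 0.337 at 4 days (adjusted p = 4.61e-07). At 7 days GSK591 was at 0.189 ± 0.00959, overlapping DMSO at 0.191 ± 0.0164, and MS023 was lower at 0.139, 0.122, and 0.115 (adjusted p = 0.0059, but 0.0781 without DMSO library b and 0.088 and 0.102 without MS023 library b or c). Limma on log2 odds called none of the 8 comparisons in which this site was called.

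Introns 2 and 3 of CIRBP were mostly spliced. Intron 3 rose from 0.043, 0.074, and 0.082 in DMSO to 0.088, 0.151, and 0.157 with GSK591 at 4 days (adjusted p = 0.00225, quasi-binomial model with limma). Co-treatment at 4 days gave 0.047, 0.089, and 0.071, lower than GSK591 alone (adjusted p = 0.00218, and 0.0654 without co-treatment library a), with library b of co-treatment just above library a of GSK591. Intron 2 (RI1) fell from 0.059 ± 0.0184 to 0.0264 ± 0.0116 with MS023 at 4 days (adjusted p = 0.049), which was lost without DMSO library b or MS023 library a or c. Neither of these changes from DMSO was called by limma on log2 odds (adjusted p = 0.0895 for intron 3 and 0.264 for intron 2).

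**Figure D4:**
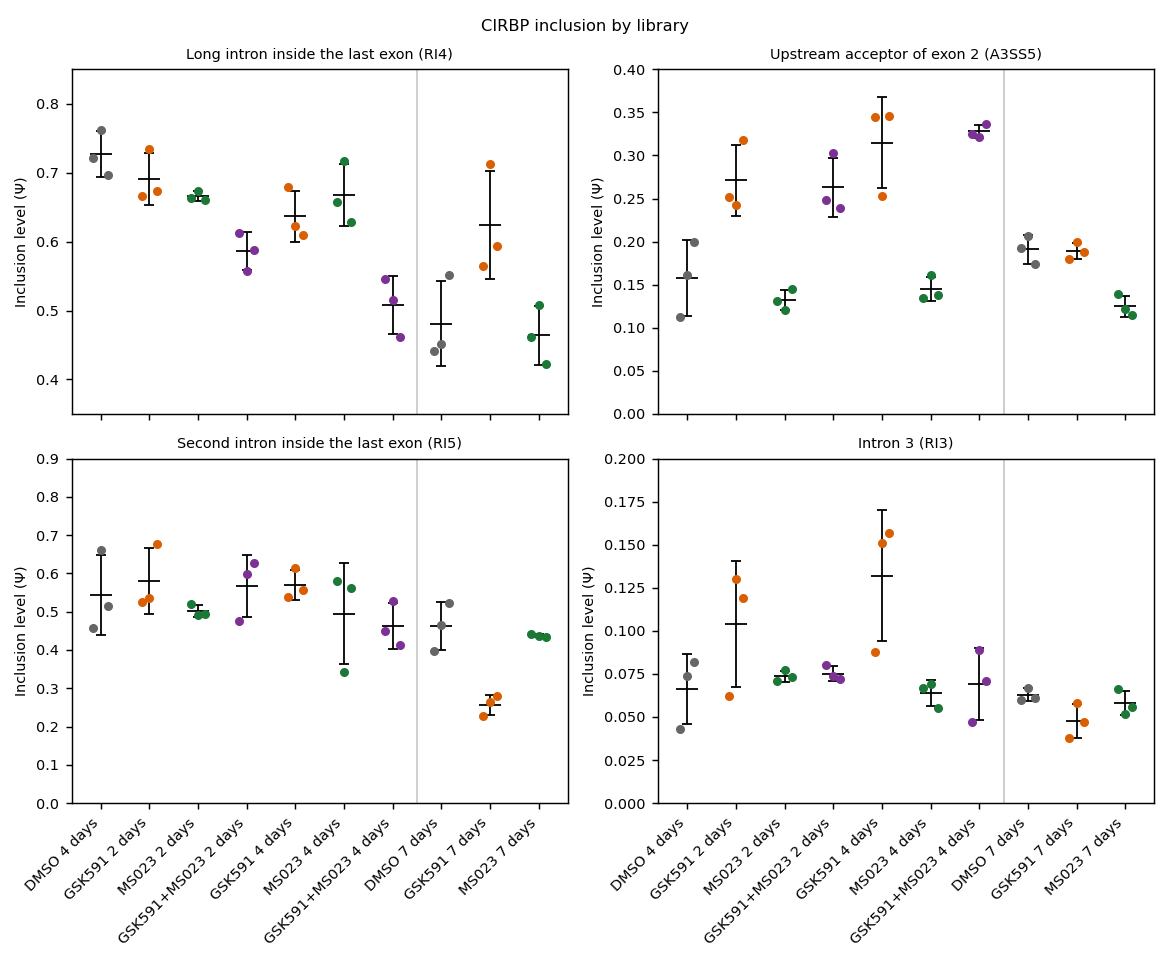
Ψ of 4 CIRBP events in each of the 30 libraries (dots) with group mean and SD (bars). The y axis of the upper left panel starts at 0.35. RI4 is lowest at 4 days in co-treatment and lower in DMSO at 7 days than at 4 days, and RI5 separates GSK591 at 7 days from every other group.

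The read level of CIRBP, taken on exon 3, was 75.3, 58.8, and 63.6 RPM in DMSO at 4 days and 99, 98, and 103 with co-treatment at 4 days, a fold of 1.53 (adjusted p = 0.000362, limma). At 7 days the folds were 1.36 with GSK591 (adjusted p = 0.00801) and 1.40 with MS023 (adjusted p = 0.00815). Of all genes 54%, 45.4%, and 28.7% were called in these comparisons. On the second most read CIRBP event the GSK591 value at 7 days kept its sign and did not pass (log2 fold change 0.27, adjusted p = 0.275). The other comparisons with DMSO did not pass. For EWSR1 the level on exon 11 was 289, 289, and 281 in DMSO at 7 days and 378, 400, and 417 with MS023 (log2 fold change 0.48, adjusted p = 0.00052, limma). This log2 fold change was 0.47 on the second most read event. With no limit on exon length it was 0.34, on SE15, which counts the reads of intron 8. On exon 11, MS023 also gave 0.4 at 2 days and 0.29 at 4 days (adjusted p = 0.00652 and 0.0352, limma). Of all genes 10.2%, 21.9%, and 28.7% were called with MS023 at 2, 4, and 7 days. Co-treatment gave 0.34 at 2 days (adjusted p = 0.007, limma, background 39.9%), and -0.21 at 4 days did not pass (adjusted p = 0.0675). With GSK591 the exon 11 log2 fold was -0.44 at 4 days and -0.52 at 7 days (adjusted p = 0.000931 and 7.22e-05, limma). The second most read event gave -0.52 and -0.44 (adjusted p = 1.05e-05 and 0.00015, limma). SE15 gave 0.16 and -0.05, which did not pass (adjusted p = 0.078 and 0.608, limma). Of all genes 35.8% and 45.4% were called in these 4- and 7-day comparisons. At 2 days -0.04 did not pass on exon 11 (adjusted p = 0.792, limma).

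The inhibitors were also compared directly over all events of the 4 genes. GSK591 and MS023 differed at 9 of 72 events at 2 days (background 10.4%), 14 of 70 at 4 days (background 15.2%), and 15 of 66 at 7 days (background 12.8%). Without GSK591 library a the 2-day count was 11. Co-treatment differed from GSK591 at 1 of 76 events at 2 days (background 3.82%), which was the TAF15 exon 4 donor, and none without library a, and at 4 of 79 at 4 days (background 5.68%). DMSO at 7 and 4 days differed at 10 of 78 events (background 6.12%). GSK591 effects at 7 and 4 days differed at 5 of 48 events (background 2.81%), and MS023 effects at 0 of 56 (background 0.165%) in the quasi-binomial model with limma, where 7 had an unadjusted p under 0.05 and limma on log2 odds also gave 0.

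Other RNA-binding proteins with RGG stretches or a place in stress granules formed a list of 19 genes, among them G3BP1, which nucleates stress granules, and RBM3, a cold-inducible relative of CIRBP. With GSK591 at 4 days, 55 of their 364 tested events were called (15.1%, background 11.2%), 20 higher and 35 lower, with a median ΔΨ of -0.000697. Of their 20 tested RI at that time 11 were called, beside 38.2% of all tested RI, and 8 were higher. This direction did not hold at each time. GSK591 called 9 of 21 RI at 2 days (26.4%), 6 of them higher, and 8 of 21 at 7 days (27.9%), 3 of them higher. Co-treatment called 9 of 20 at 2 days (34.7%) and 8 of 20 at 4 days (39.7%), 4 and 5 of them higher. MS023 at 4 days gave 32 of 369 (8.67%, background 3.75%), 11 higher and 21 lower, and of 21 RI 7 were called (background 7.17%), 6 of them lower. Co-treatment at 4 days gave 73 of 389 (18.8%, background 14.7%), 23 higher and 50 lower. Calls were uneven over the genes. In the 8 comparisons with DMSO, ATXN2L had 84 calls in 535 tests, RBM3 59 in 185, and SFPQ 0 in 42.

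Over all 30 libraries, introns whose Ψ was among the most like that of EWSR1 RI1 were in HMG20B (Pearson's r = 0.934) and SCARB1 (0.913), of 1798 introns with a median r of 0.486. For CIRBP RI4 the highest were in ZNF3 (0.702), EFCAB4A (0.693), and GAS5 (0.66), with a median of 0.0357. These describe libraries that share treatment groups and depth.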

How the data were processed

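Poly(A)-RNA seq of 30 A549 libraries was analysed. Per the labels, the submitters' processing notes name Trim Galore 0.6.5, STAR 2.4.2a, Picard 2.3.0, deepTools 3.3.1, and hg19, and the authors compared inhibitor with DMSO groups in rMATS. The 8 deposited tables hold whole-number counts of reads for inclusion (junctions and the segment itself) and skipping per library, not normalized, with effective lengths, for 5 event types (SE, MXE, A3SS, A5SS, and RI). The strand setting of the counting is not given in the sources used here, and RHBDD3, HEATR9, MASP2, and CIRBP-AS1 overlap the 4 genes on the other strand. The tables also hold the authors' p-values, FDR, and differences of Ψ, which were not used. Columns do not name libraries. The control of the 7-day groups was taken from the labels by day. Control counts listed in several tables were identical (0 of 693643 differed), so groups were joined across tables. Every column of per-sample counts was used (0 not used). SKaTER-seq and actinomycin D libraries were not analysed here.

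Ψ, the share of length-corrected inclusion counts, was within 0.0005 of the deposited Ψ. Each comparison was fitted over all events of a type, with at least 10 reads in every library, by a quasi-binomial logistic model whose dispersion was moderated by limma's squeezeVar (limma 3.58.1, R 4.3.3) with a floor of 1, an F test, and Benjamini-Hochberg adjustment. The read level per gene was added after seeing the data and tested with limma voom. Alternatives were limma on log2 odds (0.5 added to each count), minimums of 20 and 1, adjustment over all types, Ψ without length correction, and leaving out each library. A dispersion prior with a trend was added later. On simulated counts for GSK591 at 4 days, 30% of RI changed by 1 on the log2 odds scale and 71% changed by 2 were recovered among 3933 RI, with 1.94% false calls. Among 79993 SE these were 9% and 30%, with 22% false calls. Named events were every tested RI and, per gene and other type, up to 3 called events with the largest absolute ΔΨ and at least 50 reads in every library, duplicates of 1 segment collapsed. Members, lists, and tests were chosen with earlier results of these data known. Sequences and annotation came from GRCh37 and its GENCODE annotation, where 41 of 41 introns of the canonical transcripts had GT and AG ends. Usual exons and introns are those of these canonical transcripts. Of the introns most like EWSR1 RI1, 1 is not reported here.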

Additional observations from a re-analysis of the deposited data

Results flagged for a closer look

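In 5 results the pattern stood out because the effect of GSK591 differed between 7 and 4 days in the interaction test (quasi-binomial model with limma's squeezeVar, adjusted over all events of the type). CIRBP A3SS5 had a ΔΨ of 0.157 at 4 days and -0.00208 at 7 days (adjusted p = 0.00128). CIRBP RI4 had -0.0894 and 0.143 (adjusted p = 0.0039). CIRBP RI3 had 0.0657 and -0.0155 (adjusted p = 0.00901). CIRBP RI5 had 0.026 and -0.205 (adjusted p = 0.0183), which was 0.0743 without library a of DMSO at 4 days and 0.0592 without library a of GSK591 at 7 days. TAF15 exon 8 (SE25) had -0.0938 and -0.0428 (adjusted p = 0.041), which was lost on leaving out any of 8 single libraries, with values up to 0.203. Limma on log2 odds called none of them, with adjusted p of 0.518, 0.15, 0.168, 0.178, and 0.46 in this order. The 7-day groups have their own DMSO libraries, whose CIRBP RI4 was 0.481 ± 0.0613 beside 0.727 ± 0.0332 at 4 days, and the part of this difference in the interaction was not tested.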

How the results depend on the processing

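No paired analysis was possible because the columns carry no replicate numbers. Limma on log2 odds gave fewer calls: against DMSO 1, 4, 6, and 4 for GSK591 at 2 days, co-treatment at 2 days, GSK591 at 4 days, and GSK591 at 7 days, and 0 for MS023 at 2, 4, and 7 days (10, 8, and 9 at an unadjusted p under 0.05), 2 for GSK591 against MS023 at 2 days, 0 and 0 for co-treatment against GSK591, 2 for DMSO at 7 against 4 days, and 0 for the GSK591 interaction. The cause was not tested. With a trend in the dispersion prior, chosen after seeing the data, GSK591 at 2 days gave 5, MS023 at 4 days 2, and co-treatment against GSK591 at 2 days 0. The minimum of reads and the adjustment over all types left each count within 1.5 times. Of 107 called tests of named events, 40 were also called by limma on log2 odds, 89 with the trend, 65 with every library left out in turn, and 37 by all of these.

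Leaving out 1 library gave 4 to 8, 10 to 12, and 7 to 10 calls for GSK591 at 2, 4, and 7 days, 1 to 3, 1 to 3, and 2 to 5 for MS023, 6 to 11 and 11 to 12 for co-treatment, 6 to 11, 11 to 14, and 11 to 14 for GSK591 against MS023, 0 to 1 and 2 to 6 for co-treatment against GSK591, 5 to 10 for DMSO at 7 against 4 days, and 3 to 5 and 0 to 1 for the GSK591 and MS023 interactions. The TAF15 level (log2 fold) ranged from -1.41 to -1.08, -1.88 to -1.81, and -1.47 to -1.36 for GSK591 at 2, 4, and 7 days, -1.45 to -1.28 and -2 to -1.86 for co-treatment at 2 and 4 days, and 0.34 to 0.395, 0.177 to 0.255, and 0.653 to 0.761 for MS023. On other exons the MS023 2-day value was 0.439 (no limit on length, adjusted p = 0.104, limma) and 0.238 (second event, adjusted p = 0.167). The EWSR1 level reversed to 0.159 for GSK591 at 4 days and -0.422 for DMSO at 7 against 4 days with no limit on length, and to -0.87 on its second event for the latter. With no limit on length the EWSR1 event was SE15, which counts the reads of intron 8. Scaling by total reads moved the median gene by up to -0.201. Depth limits exons near 0 or 1, where a few reads carry a call.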
